A study of Mus musculus with 48 samples.

Results

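Ighd1-1, also called DFL16.1, is a D segment at the far end, seen from JH, of the D segments joined in number at the mouse immunoglobulin heavy chain locus (Igh). It occupies chr12:114720381-114720403 of mm9 on the minus strand, where the annotation lists it as an IG_D_gene of 23 bases (Gm16947, ENSMUSG00000076630.1). It was 1 of 21 annotated D segments and the 18th counted from JH. It lay 52.3 kb from JH1 and 51.6 kb from Ighd4-1, the D nearest to JH. Its junctions were the prey junctions of the JH-bait libraries on the strand coded 1 between 114720361 and 114720423, the segment with 20 bases on each side. They numbered 4779609 of 8022541 D junctions (59.6%) over 25 libraries. The 3 segments annotated beyond it held 945 junctions in all, 0.0118% of D junctions, and Ighd3-1, 43.1 kb further, held 920 of those.

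Heavy chain genes are assembled by the RAG recombinase, which first joins a D to a JH and then a VH to the DJH product. RAG bound at JH is thought to meet D segments as cohesin-driven loop extrusion draws chromatin past it, and Wapl releases cohesin from chromatin. Each D carries a recombination signal sequence (RSS) on both sides, made of a heptamer, a spacer and a nonamer, and deletional DJH joining uses the RSS that faces JH. Terminal deoxynucleotidyl transferase (TdT) adds untemplated bases to coding ends in adult pro-B cells.

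LAM-HTGTS amplifies linearly from a fixed bait, here JH1 to JH4, and reads what was joined to it. WT BM (3 libraries) and INV BM (4 libraries) were pro-B cells from C57BL/6 bone marrow, purified with anti-B220 beads and grown with IL-7 and SCF, and INV BM carried an Igh inversion. The genotype entries of both bone marrow groups also list RAG1 deficiency, and both nonetheless held at least 58673 D junctions per library. The remaining 6 groups of 3 libraries each were RAG1-deficient pro-B lines transformed by v-Abl, with OsTIR1 (the plant receptor used for auxin-induced degradation) and Emu-Bcl2, given RAG1/2 by retrovirus. They were the parental line untreated, the Wapl-degron line untreated or with IAA/Dox, and the Wapl-degron single-Igh line untreated, with IAA/Dox, or with IAA/Dox and an Igh inversion (INV). Untreated cells had 3 uM STI-571 for 4 days. Treated cells had STI-571 for 1 day and then STI-571 with 150 uM of the auxin IAA and with Dox for 3 days. The inversion of the single-Igh INV line is named in its title only, and its ends, the remaining Wapl protein and the number of clones per line are not given in the sources used here. Nothing in the labels says that replicates were separate cultures or animals, so p-values measure the spread between these libraries, which may be technical.

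The segment is shown with its RSSs because these are what RAG cuts, and Ighd4-1 is shown because it was the D whose share gained the most percentage points where Ighd1-1 fell on IAA/Dox. Both are from mm9, minus strand, 5′ to 3′, with the VH side first. Capitals mark the nonamer and heptamer on each side, separated by spacers of 12 bases, and the lower-case run between the heptamers is the coding segment. Ighd1-1 spans chr12:114720353-114720431 and Ighd4-1 chr12:114668711-114668777.
Ighd1-1: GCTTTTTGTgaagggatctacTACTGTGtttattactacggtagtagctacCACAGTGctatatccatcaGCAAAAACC
Ighd4-1: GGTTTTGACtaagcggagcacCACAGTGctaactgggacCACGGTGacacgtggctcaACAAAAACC
Against the consensus CACAGTG and ACAAAAACC, the JH side of Ighd1-1 had 0 mismatches in the heptamer and 1 in the nonamer, and its VH side had 1 and 1. The JH side of Ighd4-1 had 1 and 0, and its VH side had 1 and 3. Gm16968, the farthest annotated segment, has the length of Ighd1-1 and matches it at 16 of 23 bases.

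The libraries held 61194 to 1016401 junctions each, of which 58419 to 841534 lay in the D region and 22887 to 639156 at Ighd1-1. The 95% Wilson intervals of the Ighd1-1 share over all D junctions of a library were under 0.9 percentage points wide. Shares over 1 bait, over distinct junctions or over VH joints rest on fewer junctions and are less precise. All intervals cover counting error only, since the libraries carry no molecular identifiers. Several libraries of the same group held identical junctions, and the origin of these was not tested. Among distinct junctions with at least 6 inserted bases, 5 of 300 library pairs shared over 10% of the smaller library. Wapl-degron IAA/Dox replicates 1 and 2 shared 29.7%, replicates 1 and 3 shared 12% and replicates 2 and 3 shared 11%. Single-Igh IAA/Dox replicates 1 and 3 shared 45.0%, and single-Igh INV replicates 2 and 3 shared 33.7%. The highest share among all other pairs was 6.38%. Wapl-degron IAA/Dox replicate 2 also listed 226216 junctions under 161891 read names, where other libraries had nearly as many names as junctions. Counting each such set as 1 library left 1 Wapl-degron IAA/Dox library, 2 single-Igh IAA/Dox libraries and 2 single-Igh INV libraries, and the comparisons are given both ways where that matters. The bait JH also varied between libraries of a group. Parental replicate 1 held JH4 and JH2 junctions, single-Igh untreated replicate 1 held JH2 junctions, single-Igh INV replicate 1 held JH1 junctions, and Wapl-degron untreated replicate 1 lacked JH2. Single-Igh IAA/Dox replicates 1 and 3 held 82.9 and 81.5% of their D junctions at JH1, against 25.4% in replicate 2.

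Ighd1-1 was the most used D in 19 of 25 libraries and came second, after Ighd4-1, in the other 6, which were the 3 Wapl-degron and the 3 single-Igh libraries with IAA/Dox and no inversion. Its share of D junctions was highest in untreated v-Abl lines, lower in bone marrow pro-B cells and lowest after IAA/Dox. In the parental line it took 84.7, 74.7 and 74.6% of D junctions, a mean of 78.0% ± 5.78 (SD, n = 3). The untreated Wapl-degron line gave 78.7, 76.0 and 76.5%, a mean of 77.1% ± 1.47 (SD, n = 3). The values of these lines interleave. The untreated single-Igh line gave 63.5, 67.7 and 69.2%, a mean of 66.8% ± 2.98 (SD, n = 3), with all 3 libraries below every library of the other untreated lines. WT BM gave 45.5, 44.1 and 46.2%, a mean of 45.3% ± 1.06 (SD, n = 3), and INV BM gave 47.7, 43.1, 42.7 and 43.5%, a mean of 44.2% ± 2.31 (SD, n = 4). The bone marrow groups overlap and lie below all untreated v-Abl libraries. Among treated lines, single-Igh INV gave 42.5, 34.8 and 34.99%, a mean of 37.4% ± 4.41 (SD, n = 3). Single-Igh IAA/Dox gave 30.4, 21.9 and 33.4%, a mean of 28.6% ± 5.99 (SD, n = 3), and Wapl-degron IAA/Dox gave 23.1, 25.4 and 23.4%, a mean of 23.98% ± 1.23 (SD, n = 3). The last pair of groups overlap, whereas every single-Igh INV library lay above every library of both.

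**Figure D1:**
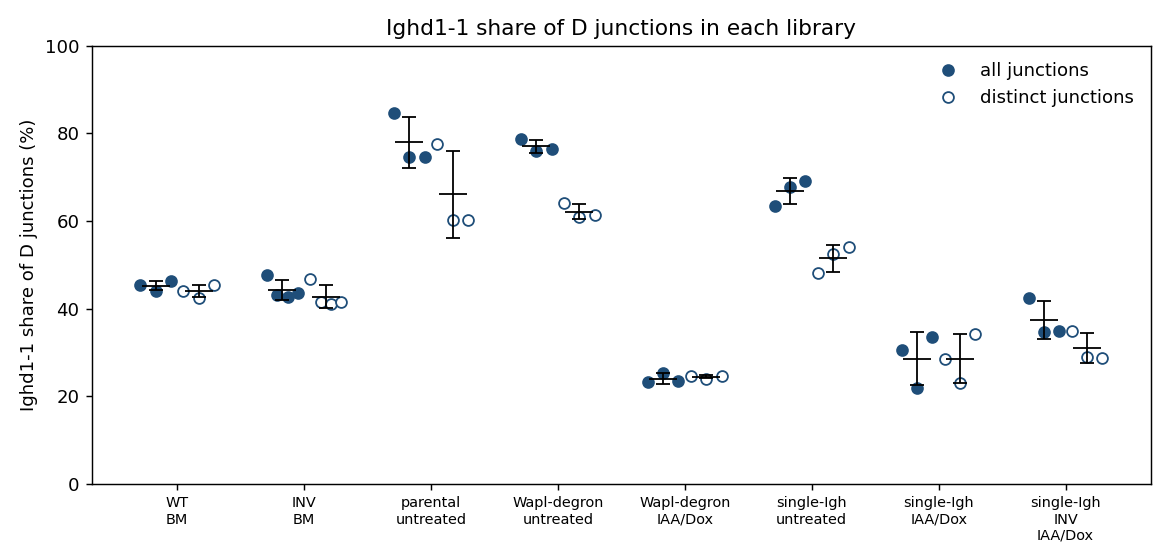
Ighd1-1 as percent of D junctions in each of the 25 JH-bait libraries analysed, by group, with group mean and SD; filled points count all junctions and open points distinct junctions. Over all junctions, untreated v-Abl libraries lie between 63.5 and 84.7%, bone marrow libraries between 42.7 and 47.7%, and libraries with IAA/Dox and no inversion between 21.9 and 33.4%.

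A line of the deposited lists is a sequenced junction, so 1 joining event can appear many times. Each Ighd1-1 junction was present in 5.67 lines on average in the parental line against 3.23 for all other D junctions, and the same held in the untreated Wapl-degron (4.61 against 2.25) and single-Igh (5.07 against 2.67) lines. In WT BM the values were 2.97 and 2.81. With identical junctions counted once, the Ighd1-1 share was 77.6, 60.3 and 60.3% in the parental line, 64.1, 60.9 and 61.3% in the untreated Wapl-degron line and 48.0, 52.4 and 54.1% in the untreated single-Igh line. It was 44.1, 42.5 and 45.3% in WT BM, 46.7, 41.5, 41.1 and 41.6% in INV BM and 24.6, 23.99 and 24.6% in Wapl-degron IAA/Dox, close to the shares over all lines. Single-Igh IAA/Dox gave 28.4, 23.0 and 34.2%, and single-Igh INV gave 34.9, 29.1 and 28.8%, so that these groups overlapped for distinct junctions. The untreated v-Abl lines thus stood less far above bone marrow when identical junctions were counted once. Parental replicate 1, which is nearly all JH4 (92.3%), stood highest either way. Without molecular identifiers, this count also merges separate joining events that gave the same junction. At JH1, 1 joint made up 37.3% of Ighd1-1 junctions in the parental line and 6.52% in WT BM. How far such merging lowers the v-Abl shares was not tested.

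The comparison of WT BM with the parental line sets primary pro-B cells against a transformed line. Ighd1-1 fell from 78.0 to 45.3% of D junctions, a difference of -32.7 percentage points, with no overlap between the groups (exact permutation test, two-sided, p = 0.1, adjusted p = 0.162 over 34 tests). This p is the smallest that 3 against 3 libraries allow. The WT BM, parental, untreated Wapl-degron and single-Igh IAA/Dox libraries each enter 2 comparisons, which are therefore not independent. In the limma fit over all D windows Ighd1-1 was lower in WT BM by a log2 difference of -0.78 ± 0.07 (SE, limma voom, adjusted p = 3.5e-05), the only window of 26 called lower. The background was 65.4% of windows called, 16 of 17 of them higher, with a median log2 difference of 2.67 over all windows. These calls depend on the total: against all junctions of the library 1 window was called, and the Ighd1-1 log2 difference was -3.31. Ighd2-4, a member of the main internal D family, was among those that rose, from 1.70 to 12.3% of D junctions, by a log2 difference of 2.86 (limma voom, adjusted p = 5.16e-08). Ighd4-1 took 10.2% in the parental line and 7.71% in WT BM. Primary and transformed state, culture and the source of RAG differ together between these groups and cannot be told apart. The fit borrows its estimate of spread from all windows, and very small p-values from it say little about how far libraries scatter at Ighd1-1 itself.

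Untreated Wapl-degron cells were compared with the parental line to see whether the tagged line joins Ighd1-1 as its parent does. The shares differed by -0.927 percentage points (exact permutation p = 1), and the log2 difference was -0.01 ± 0.08 (SE, limma voom, adjusted p = 0.942; 95% interval -0.19 to 0.17). The fit called 0 of 25 windows, 0% of those tested, and 0 windows had an unadjusted p under 0.05.

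IAA/Dox treatment of the Wapl-degron line was accompanied by a fall of Ighd1-1, and every other D window that was called rose. The share fell from 77.1 to 23.98% of D junctions, a difference of -53.1 percentage points, with no overlap (p = 0.1 by exact permutation, which 3 against 3 libraries cannot go below; adjusted p = 0.162). On the log2 scale the difference was -1.68 ± 0.06 (SE, limma voom, adjusted p = 1.1e-47). The fit called 12 of 24 windows, a background of 50%, and Ighd1-1 was the only one of them called lower, while the median over all windows was 0.58. Ighd4-1 rose from 11.7 to 60.6% of D junctions, by a log2 difference of 2.35 (limma voom, adjusted p = 2.79e-59). Shares of a fixed total move against each other, so the segments were also compared without Ighd4-1 in the total. Ighd1-1 then went from 87.3 to 60.9% of the remaining D junctions. Ighd6-1, its neighbour 2.00 kb closer to JH, changed by -0.40 on the log2 scale and did not pass (limma voom, adjusted p = 0.0892). With the 3 treated libraries summed to 1 because of their shared junctions, the Ighd1-1 log2 difference was -1.66 (limma voom, adjusted p = 3.2e-18), where the lone treated library is assumed to vary like the untreated ones. Within the 1 sequencing run that held both groups the difference in share was -51.7 percentage points. The treated group had only replicate 2 in that run.

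The line labelled single Igh showed a fall as well. Ighd1-1 went from 66.8 to 28.6% of D junctions, a difference of -38.2 percentage points with no overlap (p = 0.1 by exact permutation, which 3 against 3 libraries cannot go below; adjusted p = 0.162). The log2 difference was -1.26 ± 0.20 (SE, limma voom, adjusted p = 7.56e-08). The fit called 11 of 25 windows, a background of 44%, with a median of 0.31 over all windows. Those called lower were Ighd1-1, Ighd6-1 at -1.35 (adjusted p = 0.000117) and Ighd6-2 at -1.10 (adjusted p = 0.016), all by limma voom. Ighd2-3, which lies between Ighd6-1 and Ighd6-2, differed by 0.03 and did not pass (limma voom, adjusted p = 0.948). Ighd6-1 held only 0.330% of D junctions in untreated cells and 0.125% in treated cells. Ighd4-1 rose from 11.8 to 45.8%, by a log2 difference of 1.97 (limma voom, adjusted p = 3e-15). Without Ighd4-1 in the total, Ighd1-1 went from 75.7 to 52.6%. With sequencing run as a block the log2 difference was -1.32 and no longer passed (limma voom, adjusted p = 0.233). Within the run that held both groups the share differed by -40.1 percentage points, where the untreated group had only replicate 2. With the sharing libraries summed it was -1.33 (limma voom, adjusted p = 1.8e-07).

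The fall in the single-Igh line was smaller by 0.43 on the log2 scale than in the Wapl-degron line (95% interval 0.02 to 0.83), and this difference did not pass (limma voom, adjusted p = 0.198; 3.85% of 26 windows called). From JH1 junctions alone the difference between the falls was -0.05 (adjusted p = 0.530, limma voom), and with sharing libraries summed it was 0.33 (adjusted p = 0.689, limma voom).

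The inversion was compared in bone marrow and in the treated single-Igh line. In bone marrow Ighd1-1 kept a share near that of WT cells, with a difference of -1.04 percentage points and overlapping libraries (exact permutation p = 0.571, adjusted p = 0.648; the smallest possible p is 0.0571). The log2 difference was -0.04 ± 0.05 (SE, limma voom, adjusted p = 0.704), with a 95% interval of -0.14 to 0.07. The fit called 5 of 27 windows, a background of 18.5%, and 2 of them were lower. Ighd6-1 fell from 1.23 to 0.5996% of D junctions, by -0.87 on the log2 scale (limma voom, adjusted p = 0.0188). Ighd2-4 rose from 12.3 to 14.5%, by 0.25 (limma voom, adjusted p = 0.0188). Without WT BM replicate 2, without WT BM replicate 3, or with the replicate number as a block, 0 windows were called, so these calls were lost. Without INV BM replicate 1, the library with the highest Ighd1-1 share, the log2 difference was -0.07 and passed (limma voom, adjusted p = 1.47e-05). Both sequencing runs held both genotypes, and the difference in share was 2.16 percentage points in the run that held replicate 1 of each and -2.07 in the other. These shares are of D junctions. D junctions were 5.77 to 48.9% of all junctions in WT BM and 77.8 to 87.4% in INV BM, so that, taken as a share of all junctions, Ighd1-1 was 26.6 percentage points higher in INV BM. Most junctions of 2 WT libraries were neither D nor VH, with 58673 D and 61394 VH of 1016401 in replicate 3 and 82234 and 83648 of 509261 in replicate 2. What these others were was not tested. Over D and VH junctions alone, Ighd1-1 took 21.9 to 23.6% in WT BM and 38.9 to 41.4% in INV BM.

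In the treated single-Igh line, Ighd1-1 was higher with the inversion, at 37.4 against 28.6% of D junctions, a difference of 8.85 percentage points with no overlap (p = 0.1 by exact permutation, which 3 against 3 libraries cannot go below; adjusted p = 0.162). The log2 difference was 0.41 ± 0.18 (SE, limma voom, adjusted p = 0.0785) and did not pass, against a background of 28% of 25 windows called and a median of 0.91 over all windows. Ighd4-1 fell from 45.8 to 22.4%, by -1.01 on the log2 scale (limma voom, adjusted p = 0.00144), and Ighd2-4 rose from 3.20 to 6.46%, by 1.07 (limma voom, adjusted p = 0.00221). Without Ighd4-1 in the total the order turned, with 48.2% in the inversion libraries and 52.6% in the others. Without single-Igh IAA/Dox replicate 3 the log2 difference was 0.55 and passed (limma voom, adjusted p = 0.0408). With sharing libraries summed it was 0.52 (limma voom, adjusted p = 0.207).

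The share of Ighd1-1 depended on which JH was the bait, the JH that it was joined to. In WT BM it was 60.9% ± 2.05 of D junctions at JH1, 42.1% at JH2, 36.3% at JH3 and 35.2% at JH4 (means, n = 3), and INV BM gave 61.0, 43.5, 34.5 and 36.5% (n = 4). JH1, the JH nearest to the D segments, thus stood apart in bone marrow, with 58.6 to 62.5% in the WT libraries, where no other bait was above 43.6%. In INV BM the JH1 shares were 58.8 to 66.2%, and the highest share of another bait was 48.6%, at JH2 in replicate 1. The untreated Wapl-degron line was flatter, with 82.1% at JH1, 72.1% at JH2 (n = 2), 76.1% at JH3 and 81.1% at JH4. After IAA/Dox the same line gave 34.8% ± 0.951 at JH1, 18.2% ± 0.0927 at JH2, 22.9% ± 0.239 at JH3 and 41.5% ± 0.431 at JH4 (SD, n = 3), and each bait kept its level over these libraries, which share junctions. The fall on treatment was therefore present at each JH, by -47.2, -53.9, -53.2 and -39.6 percentage points from JH1 to JH4. In the single-Igh line it was -43.3, -31.9, -26.7 and -35.3 points. The JH3 value includes libraries with 352 and 847 JH3 junctions, and with at least 1000 junctions the JH3 shares were 70.2% untreated (n = 2) and 21.9% treated (n = 1).

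**Figure D2:**
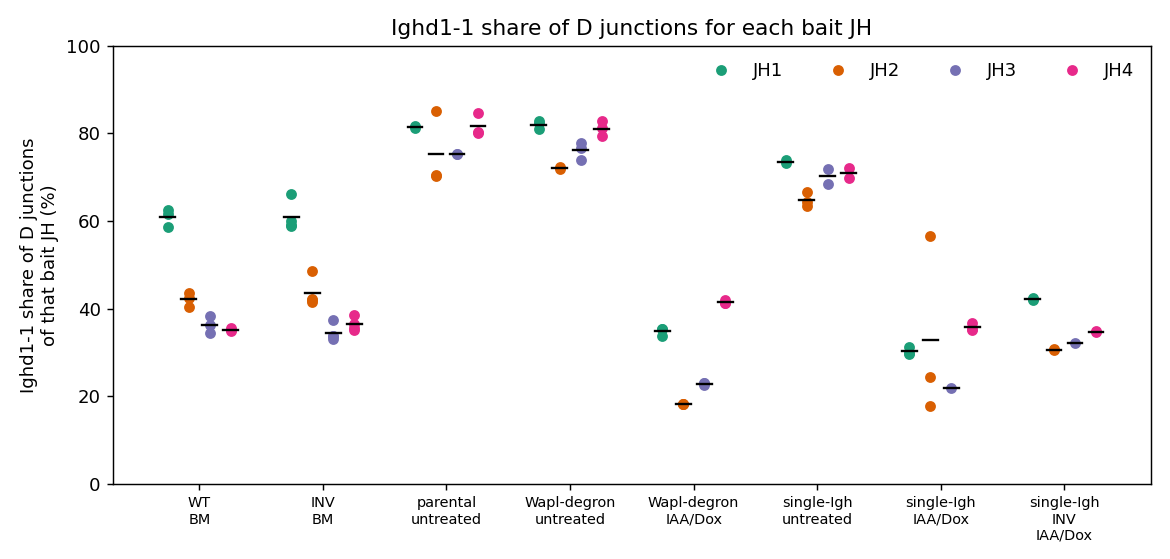
Ighd1-1 as percent of the D junctions of each bait JH, by group, for libraries with at least 1000 D junctions of that bait; points are libraries and short lines are group means. Bone marrow groups are highest at JH1 (60.9 and 61.0%), while treated Wapl-degron cells are highest at JH4 (41.5%) and lowest at JH2 (18.2%).

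Single-Igh IAA/Dox replicate 3 stood apart at JH2 and JH3. Its share was 56.7% at JH2 against 24.3 and 17.7% in the other replicates, and 73.3% at JH3 against 35.2 and 21.9%, while at JH1 the 3 libraries gave 29.9, 29.7 and 31.2%. This library held 81.5% of its D junctions at JH1, and its JH2 and JH3 shares rest on 4180 and 847 D junctions. Of its 112 distinct JH2 and JH3 junctions with at least 6 inserted bases, 14 (12.5%) were also in parental replicate 2, 12 (10.7%) in parental replicate 3 and 9 (8.04%) in single-Igh untreated replicate 2, all of the same sequencing run. Other libraries of that run shared 1 (Wapl-degron IAA/Dox replicate 3) and 0 (single-Igh IAA/Dox replicate 2), and v-Abl libraries of other runs shared 0 to 5. The part of these in the high share was not tested. Without replicate 3, the change on IAA/Dox was -43.8 points at JH2 and -41.6 at JH3. The difference between the inversion and non-inversion single-Igh libraries was 11.95 points at JH1, -2.30 at JH2, -11.0 at JH3 and -1.02 at JH4, and without replicate 3 it was 9.59 at JH2 and 3.93 at JH3. At JH3, 4 of these 6 libraries held under 1000 D junctions, 1 of them none, and the 1 library of each group above that number gave 32.04% with the inversion and 21.9% without, so the direction at JH3 turned with the minimum.

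Read the other way, from D to JH, Ighd1-1 junctions of bone marrow used JH1 more than those of all other D segments in the same library. JH1 took 30.4% of Ighd1-1 junctions and 15.8% of other D junctions, a difference of 14.6 percentage points that was positive in 7 of 7 libraries and ranged from 12.6 to 19.5 (p = 0.0156 by exact sign-flip permutation, the lowest that 7 libraries allow; adjusted p = 0.0885). JH3 and JH4 were used less in 7 of 7 libraries, with differences of -5.25 and -6.13 points (each with p = 0.0156 by exact permutation, 0.0885 adjusted). For JH2 the difference was -3.23 points and negative in 6 of 7 libraries (exact permutation p = 0.0313, adjusted p = 0.152). After adjustment none of the bone marrow differences passed 0.05. In v-Abl libraries the JH1 difference was 7.01 points, positive in 13 of 16 libraries with that bait (permutation p = 0.00098, adjusted p = 0.0111). It was negative in single-Igh IAA/Dox replicates 1 and 3, at -2.19 and -8.11 points, which share junctions with each other. JH2 was used less, with a difference of -8.25 points (lower in 14 of 16 libraries, permutation p = 0.00048, adjusted p = 0.00816), and JH4 more, by 1.54 points (higher in 13 of 16, permutation p = 0.00026, adjusted p = 0.00816). JH3 differed by -0.301 points (permutation p = 0.774). These means are over 18 libraries, where a library that lacks the bait counts as 0 and one with hardly any other bait, such as single-Igh untreated replicate 1 at JH2, is at or near 0. Over the 11 libraries with each JH at 1% or more of D junctions the differences were 10.7 points at JH1, -12.8 at JH2 and 2.05 at JH4 (permutation p = 0.000977, 0.000977 and 0.00195, unadjusted). With libraries that share junctions averaged to 1, the differences were 6.44 points at JH1, -7.45 at JH2 and 1.298 at JH4 (permutation p = 0.00293, 0.00342 and 0.00195, unadjusted). The JH4 difference rests on Ighd4-1: without Ighd4-1 among the other segments it was -3.14 points (permutation p = 4e-05).

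The junction position gives the number of bases lost from the JH-facing end of Ighd1-1, with bases that could come from D or JH counted as D. Such shared bases were far more frequent in v-Abl joints than in bone marrow, so each loss below is the smallest the reads allow, and values with shared bases given to JH follow. Counted either way, mean losses in bone marrow lay above those of the v-Abl groups. WT BM libraries lost 5.01, 4.85 and 4.96 bases on average and INV BM libraries 4.86, 4.59, 4.57 and 4.68. The group means of the v-Abl lines were 2.40 bases in parental, 2.38 in untreated Wapl-degron, 2.19 in Wapl-degron IAA/Dox, 2.35 in untreated single-Igh, 1.83 in single-Igh IAA/Dox and 1.82 in single-Igh INV cells. WT BM exceeded the parental line by 2.54 bases with no overlap (exact permutation p = 0.1). With shared bases given to JH, the mean loss was 5.21 ± 0.0902 bases in WT BM (SD, n = 3), 4.93 ± 0.127 in INV BM (SD, n = 4) and 3.79 ± 0.295 in the parental line (SD, n = 3), and WT BM exceeded the parental line by 1.42 bases with no overlap (exact permutation p = 0.1). The other v-Abl groups then had means of 3.79 to 4.09 bases. With shared bases counted as D, 18.8% of Ighd1-1 junctions in WT BM and 19.97% in INV BM read as untrimmed, against 41.5% in the parental line and 53.1% in single-Igh INV cells. With shared bases given to JH these became 14.6, 16.1, 17.6 and 11.2%, and single-Igh INV cells then lay below WT BM. The parental libraries then ranged from 13.8 to 25.0% and overlapped those of WT BM, at 13.9 to 15.2%. With shared bases counted as D, losses over 10 bases made up 10.5% in WT BM and 2.505% in the parental line. Treated single-Igh cells lost 0.518 bases fewer than untreated ones (exact permutation p = 0.1, no overlap), but the groups differ in bait. At JH1 alone, with 2 untreated and 3 treated libraries, the difference was -0.274 bases without overlap (exact permutation p = 0.2, the smallest possible). With shared bases given to JH, the difference over all baits turned, to 0.134 bases (exact permutation p = 0.4). In the Wapl-degron line the difference was -0.197 bases (exact permutation p = 0.2) and at JH1 alone -0.191, there without overlap. INV BM lost 0.261 bases fewer than WT BM, with overlapping libraries (exact permutation p = 0.114), and 0.278 fewer without overlap when shared bases were given to JH (exact permutation p = 0.0571).

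**Figure D3:**
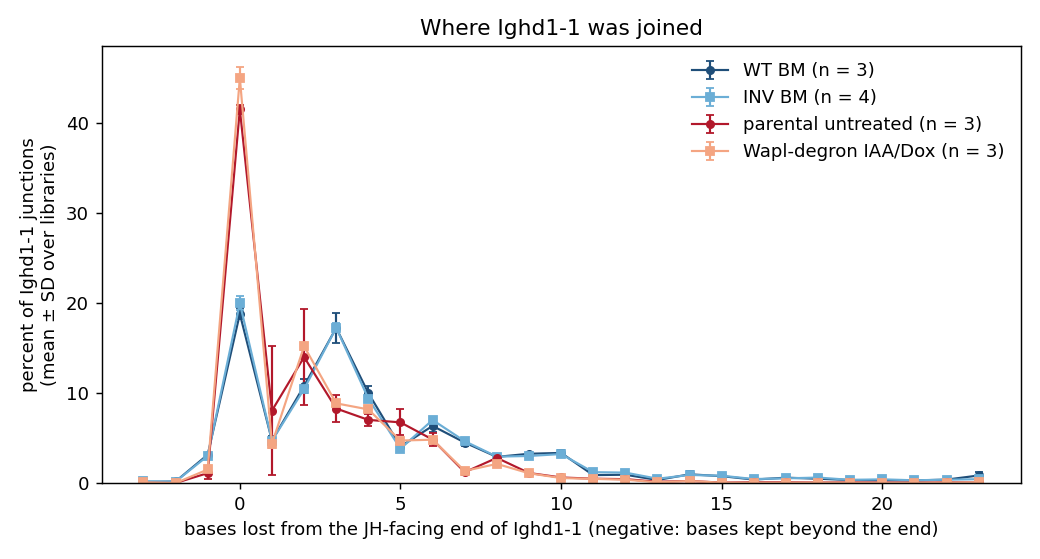
Percent of Ighd1-1 junctions by the number of bases lost from the JH-facing end, with bases shared by D and JH counted as D, as mean and SD over the libraries of WT BM, INV BM, parental and Wapl-degron IAA/Dox cells. At 0 bases lost lie 18.8% of junctions in WT BM and 41.5% in the parental line, and 14.6 and 17.6%, with overlapping libraries, if shared bases are given to JH.

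Most Ighd1-1 joints of bone marrow held inserted bases, the kind that TdT adds, and most joints of the v-Abl lines did not. In WT BM 81.9, 81.3 and 82.4% of Ighd1-1 junctions had bases that came from neither D nor JH, and in INV BM 83.6, 82.4, 82.3 and 82.5%. In the parental line they were 24.3, 21.4 and 21.7%, a difference of 59.4 percentage points between WT BM and parental means (exact permutation p = 0.1, no overlap). The other v-Abl groups had means from 12.7% ± 2.68 in single-Igh INV to 27.5% ± 1.32 in Wapl-degron IAA/Dox (SD, n = 3 each). The mean insert was 3.69 bases long in WT BM and 2.29 in the parental line. Joints in which D and JH could share bases, a microhomology, were 9.57% of Ighd1-1 junctions in WT BM and 9.12% in INV BM. In the v-Abl lines they were 54.1% (parental), 57.0% (Wapl-degron untreated), 54.6% (Wapl-degron IAA/Dox), 61.4% (single-Igh untreated), 63.6% (single-Igh IAA/Dox) and 69.5% (single-Igh INV). The remainder, with neither, was 8.56% in WT BM and 23.5% in the parental line. Inserted bases were more frequent by 7.07 points in Wapl-degron IAA/Dox than in untreated cells (exact permutation p = 0.1, no overlap), but the difference was -12.2 points when identical junctions were counted once. That count can merge separate events with the same junction. Depth also differed, with 178491 to 639156 Ighd1-1 junctions in untreated and 22887 to 46300 in treated libraries, and its part was not tested. In the single-Igh line the difference on treatment was -1.90 points (exact permutation p = 0.4), and single-Igh INV differed from single-Igh IAA/Dox by -4.48 points (exact permutation p = 0.1). Libraries differ in bait, and at JH1 alone the means were 76.9% in WT BM, 77.5% in INV BM, 14.8% in parental, 14.9% in untreated Wapl-degron and 19.8% in Wapl-degron IAA/Dox cells. In the single-Igh line they were 11.6% untreated, 13.7% with IAA/Dox and 8.84% with the inversion. Overlapping bases are assigned to both alignments, so the shares depend on how the aligner extends each side.

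**Figure D4:**
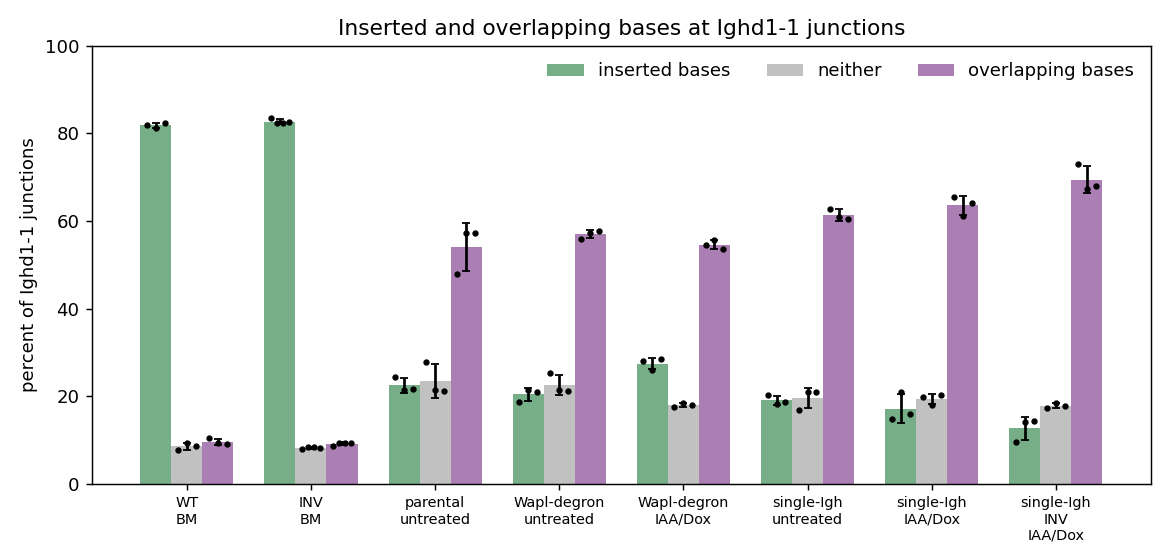
Percent of Ighd1-1 junctions with inserted bases, with bases shared by D and JH, and with neither, as group means with SD (bars) and single libraries (points). Inserted bases lead in WT BM (81.9%) and INV BM (82.7%), and shared bases lead in all 6 v-Abl groups, from 54.1 to 69.5%.

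A recurrent joint of each bait shows what the shared bases are. The JH1 joint was the most frequent of its bait in all 8 groups. The others led in most groups, but at JH2 a joint with 4 shared bases led in INV BM, parental and Wapl-degron IAA/Dox cells, at JH3 joints with 1 inserted base led in both bone marrow groups, and at JH4 a joint that had lost 1 base led in Wapl-degron IAA/Dox cells. Each line gives the joint as read from D into JH, 5′ to 3′, and capitals mark the bases that match mm9 on both the D and the JH side. Whether each of these bases lies inside the JH coding segment was not checked.
JH1: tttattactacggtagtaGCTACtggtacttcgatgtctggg
JH2: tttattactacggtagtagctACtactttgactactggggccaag
JH3: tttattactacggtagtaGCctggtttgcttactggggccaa
JH4: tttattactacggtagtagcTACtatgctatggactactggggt
The JH1, JH2 and JH4 joints share 5, 2 and 3 bases. Counted as D, these bases complete the coding end, and counted as JH, the end has lost that many bases. The JH3 joint shares 2 bases and has lost 3 bases of Ighd1-1 if they are counted as D. The JH1 joint alone made up 37.3% ± 0.167 of the Ighd1-1 to JH1 junctions in the parental line (SD, n = 2) and 37.3% ± 0.0938 in untreated Wapl-degron cells (SD, n = 3). It reached 40.7% ± 1.32 in Wapl-degron IAA/Dox, 39.8% ± 0.1697 in single-Igh untreated (n = 2), 44.6% ± 0.792 in single-Igh IAA/Dox and 47.1% ± 0.294 in single-Igh INV cells. In WT BM it made up 6.52% ± 1.51 (SD, n = 3) and in INV BM 7.09% ± 0.396 (SD, n = 4). The JH4 joint was 14.7% of its junctions in the parental line and 1.52% in WT BM, the JH2 joint 11.3 and 1.43%, and the JH3 joint 8.99 and 0.876%. All 4 joints were thus several times more frequent in the v-Abl lines than in bone marrow. The JH1 joint, with 5 shared bases, was the most frequent of them in every group, each counted within its own bait. Whether frequency follows the length of the shared run was not tested. In the parental line the JH2 joint with 4 shared bases made up 11.4%, against 14.7% for the JH4 joint with 3.

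When the prey is a VH, the D of a complete VDJ joint lies in the bases between the alignments. It could be read as the longest match, of at least 9 bases, to a single D. VH joints here are all junctions between chr12:114812453 and 117238672, on either strand. They were not limited to VH genes, so joints elsewhere in this region count as well, and their part was not tested. A D was read in 48.4 to 75.0% of VH joints. Short segments such as Ighd4-1, with 11 bases, are seldom long enough after trimming, so these shares are of joints with a readable D. Joints whose longest match fitted several segments were left out. Ighd2-7 and Ighd2-8, with 17 bases each, share a long run, whereas Ighd1-1 has 23 bases. How far this moves the Ighd1-1 share was not tested. Ighd1-1 was the D in 48.5, 51.2 and 52.2% of them in WT BM, a mean of 50.6% ± 1.87 (SD, n = 3), and in 32.9, 32.8, 33.1 and 32.5% in INV BM, a mean of 32.8% ± 0.249 (SD, n = 4). Every INV library lay below every WT library, by 17.8 percentage points on average (p = 0.0571 by exact permutation, the lowest that 4 against 3 allow; adjusted p = 0.162), although the same libraries overlapped in their D junctions. Ighd2-4 took 14.2% of such joints in WT BM and 21.3% in INV BM.

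In the v-Abl lines Ighd1-1 was the D of 66.8, 72.5 and 72.4% of readable VH joints in parental cells and of 71.7, 74.2 and 76.6% in untreated Wapl-degron cells. With IAA/Dox the Wapl-degron libraries gave 54.6, 54.4 and 56.8%, a difference of -18.9 points without overlap (exact permutation p = 0.1). Ighd2-3 took 9.96% in untreated and 20.3% in treated cells. The single-Igh line went from 61.3, 59.6 and 60.1% to 53.7, 47.9 and 54.6% with IAA/Dox, a difference of -8.31 points, and the inversion libraries gave 33.3, 27.2 and 27.5%, a difference of -22.7 points from the latter (exact permutation p = 0.1 for each, no overlap). The inversion libraries rest on only 72, 610 and 815 readable VH joints, against 2841 to 5180 without the inversion, and the 95% Wilson interval of the first is 23.5 to 44.8%. The difference between WT BM and the parental line was -20.0 points (exact permutation p = 0.1, no overlap).

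The share among VH joints was set against the share of D junctions in the same library. These are unlike measures, since D junctions count every segment by position and VH joints only those with a readable D. With a match of 9 bases, the VH joint share of Ighd1-1 was higher in WT BM, by 5.36 ± 2.08 points (SD, above 0 in 3 of 3 libraries). In INV BM it was lower, by -11.4 ± 2.29 points (below 0 in 4 of 4). In treated cells without the inversion the excess was 31.3 points in Wapl-degron and 23.5 in single-Igh libraries, and with the inversion it was -8.08. Untreated lines lay at -7.41 ± 9.03 (parental), -2.90 ± 3.69 (Wapl-degron) and -6.43 ± 3.76 (single-Igh, SD for each). Over all 7 bone marrow libraries the mean was -4.22 points (exact permutation p = 0.25), and over the 18 v-Abl libraries it was 4.99 (permutation p = 0.222). With a shortest match of 11 bases they were 2.09 and 13.9 points, with 7 bases the v-Abl mean was -0.747, and for distinct junctions it was 12.8. These pooled means join groups that moved in opposite directions at a match of 9 bases. Every group mean rose with the match length, in WT BM from 2.19 points with 7 bases (above 0 in 2 of 3 libraries) to 12.6 with 11. With 11 bases the untreated parental, Wapl-degron and single-Igh means turned positive, at 0.218, 4.39 and 2.57, as did single-Igh INV at 0.941. For distinct junctions the untreated means were 4.09, 11.6 and 8.67. With 9 bases, leaving Ighd4-1 out of both shares took the treated values to -4.13 and 0.464. The WT and INV BM values became 2.65 and -14.5, with WT BM above 0 in 2 of 3 libraries. The excess in treated cells was thus not present without Ighd4-1 in the totals. Untreated values also fell, to -15.7 (parental), -12.5 (Wapl-degron) and -15.0 (single-Igh), and single-Igh INV to -18.6. Treated Wapl-degron and single-Igh cells stayed 8.33 and 15.5 points above their untreated lines (exact permutation p = 0.1 each, the smallest possible).

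**Figure D5:**
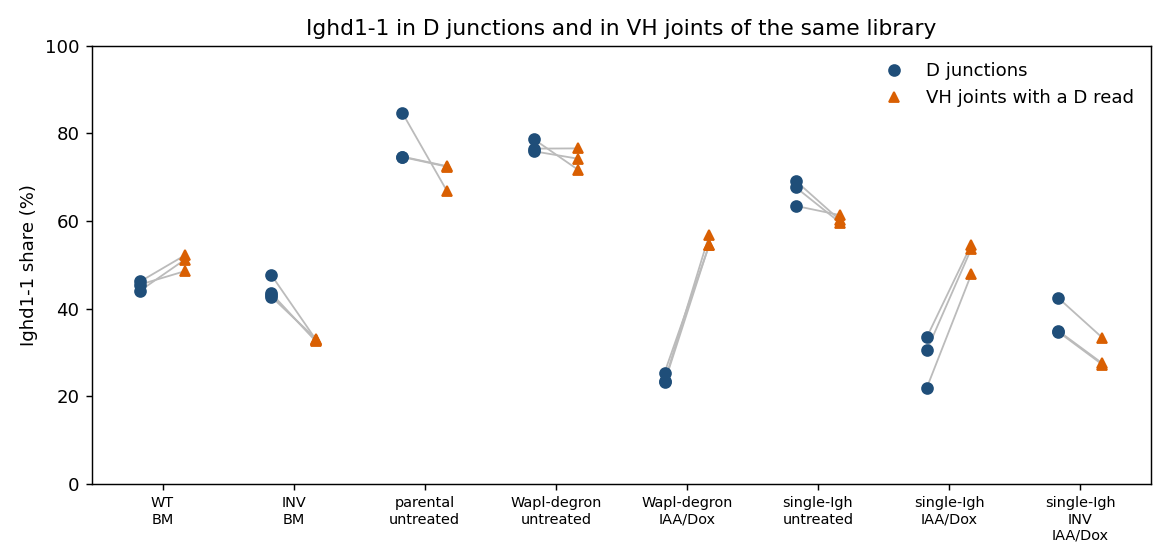
Ighd1-1 as percent of D junctions and as percent of VH joints with a readable D, in each library by group; a line joins the 2 values of a library. In INV BM all 4 libraries are lower among VH joints (32.5 to 33.1%) than among D junctions (42.7 to 47.7%), and in treated lines without the inversion all 6 are higher.

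No other D segment closely followed Ighd1-1 across the groups, among the 10 with at least 10 junctions in every library. Over the means of the 8 groups, on the log2 scale, the segments most like it were Ighd6-1 (Pearson r = 0.17), Ighd6-2 (r = -0.18) and Ighd3-2 (r = -0.18), and Ighd4-1 was least like it (r = -0.78). These 8 points share the same total in each library and are given as a description. Junctions at Ighd1-1 on the other strand, which would be inversional joints, were 0.036 to 0.33% of those on both strands. This percentage was higher with IAA/Dox without overlap, at 0.172 to 0.207 against 0.047 to 0.060% in the Wapl-degron line. In the single-Igh line it was 0.163 to 0.329 against 0.050 to 0.059%. In both lines the junctions on strand 1 lost share at the same time. Against all D junctions, the other-strand junctions had log2 differences of 0.21 and 0.80 there. They were not called in any of the 6 comparisons by limma voom.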

How the data were processed

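Each deposited list holds 1 junction per line with positions in mm9 and no normalization, per the file headers and the labels, so counts of lines are counts of sequenced junctions. Bowtie2 is named, without a version, in the submitters' processing notes. Lists pooled over replicates, off-target lists and the other baits of the series were not used, and WT BM replicate 4, for which the file used here is an off-target list, was not analysed here. The 8 sequencing runs were taken from read names. Junctions were counted in windows of 20 bases around each D (Python 3.11.15, pandas 2.3.3, numpy 2.4.6). The D region ended at the outer bases of Ighd4-1 and Gm16968, so these had a window on their inner side only. Ighd4-1 junctions beyond its JH-facing end were thus in neither its count nor the D total, unlike those of Ighd1-1. Junctions of a library that shared prey position, strand, prey end, bait end and inserted bases were counted once as a distinct junction. Shared bases are counted where the bait and prey alignments overlap. VH joints were junctions on either strand anywhere in the VH region, at a VH gene or not. Their D was the longest match, of at least 9 bases, to a single D, and ties were left unassigned. Figures used matplotlib 3.10.9.

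Shares were compared by exact permutation tests (scipy 1.17.1), two-sided, with 1 value per library, and within-library differences by sign-flip permutation, exact for 7 bone marrow libraries and with 100000 resamples for 18 v-Abl libraries, 15 or 16 of which held a given bait JH; Benjamini-Hochberg adjustment covered 34 tests. D windows with at least 10 junctions were fitted with limma 3.58.1 (voom, R 4.3.3) against the D junctions of the library, adjusted over windows, called at 0.05 and tested on simulated data. Ighd1-1, Ighd4-1 and the 3 segments most like Ighd1-1 over 8 group means were to be named; Ighd2-3, Ighd2-4 and the other segments were chosen after their values were seen. Members and lists were chosen with earlier results of these data known. The deviations of same-numbered libraries correlated positively in every replicate for untreated Wapl-degron against parental cells only, at 0.548, 0.651 and 0.385 over 11 segments. With 3 libraries a group this does not establish that the replicate numbers are pairs. Alternatives tried were distinct junctions, other totals, single baits, single runs, a run or replicate block, other windows and match lengths, and each library left out.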

Additional observations from a re-analysis of the deposited data

Results flagged for a closer look

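INV BM replicate 1 lay apart from the other 3 INV libraries in its Ighd1-1 share of D junctions, at 47.7%, and in its Ighd1-1 junctions with inserted bases, at 83.6%. Its gap to the nearest library was 0.847 and 0.832 of the group's range, above Dixon's 95% critical value for 4 samples. Such a gap arises by chance in about 1 of 20 groups, and this library was also the only INV library of its sequencing run.

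The share of Ighd1-1 among readable VH joints minus its share among D junctions had opposite signs in every library of both groups in 4 comparisons, with a shortest match of 9 bases. The difference between INV BM and WT BM was -16.8 percentage points, with 4 of 4 INV libraries below 0 and 3 of 3 WT libraries above 0 (exact permutation p = 0.0571, the smallest possible). It was 29.9 points for single-Igh IAA/Dox against untreated, -31.6 for single-Igh INV against single-Igh IAA/Dox and 12.8 for WT BM against parental (exact permutation p = 0.1 each, the smallest possible). Adjusted over 6 comparisons, each of these had an exact permutation p of 0.12. Opposite signs in every library fix p at its smallest value, so these p-values add nothing to the flag. Without Ighd4-1 in either share the differences were -17.2, 15.5, -19.0 and 18.4 points, and the opposite signs no longer held in every library: WT BM and single-Igh IAA/Dox were each above 0 in 2 of 3. With a match of 7 bases WT BM was above 0 in 2 of 3 libraries (mean 2.19 points), and both single-Igh comparisons kept opposite signs. With 11 bases the bone marrow comparison kept them (means of 12.6 and -5.77 points), while untreated single-Igh, single-Igh INV and parental cells were each above 0 in 2 of 3. For distinct junctions the bone marrow comparison and single-Igh INV against single-Igh IAA/Dox kept them, untreated single-Igh cells were above 0 in 3 of 3 and parental cells in 2 of 3.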

How the results depend on the processing

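Over 46 results, 210 of 256 alternatives counted as the same as the main setting, as did 202 of 222 settings with 1 library left out. Same meant the same direction and side of the threshold or, for numbers of called windows, a number close to the main one. Exact tests between groups could not reach 0.05 in any setting, so for them only a turned direction counted as a change. The share difference of INV BM against WT BM turned with D and VH junctions as the total (17.1 percentage points), all junctions (26.6), JH1, JH2 or JH4 alone (0.118, 1.36, 1.34) and run 1 (2.16), and its fitted log2 difference with the same totals (0.79 and 2.29) and a run block (0.00572). Its called windows, 5, became 0 with a replicate block, 9 for distinct junctions, 10 with D and VH junctions, 14 with all junctions and 0 to 9 with a library left out, where the log2 difference was -0.0739 to -0.0191. Single-Igh INV against single-Igh IAA/Dox turned without Ighd4-1 (-4.37 points) and at JH2, JH3 and JH4 (-2.30, -11.0, -1.02); its log2 difference passed against all junctions (0.50) and was 0.18 to 0.55 with a library left out, its bases lost were 0.232 for distinct junctions, 0.108 with shared bases given to JH and -0.0923 to 0.119 with a library left out, and its called windows were 2 with sharing libraries summed and 2 to 15 with a library left out. For single-Igh IAA/Dox the run block gave -1.32, bases lost differed by 0.134 with shared bases given to JH, inserted bases at JH1 differed by 2.04 points, and called windows were 7 to 17 with a library left out. Inserted bases in Wapl-degron IAA/Dox were -12.2 for distinct junctions. WT BM against parental had 1 called window with all junctions. The near-0 differences between untreated Wapl-degron and parental cells changed sign: shares 0.407 without Ighd4-1, 0.519 at JH1, 0.831 at JH3 and -2.62 to 2.41 with a library left out; bases lost 0.118 (distinct), 0.00854 (JH1), 0.187 (shared bases given to JH) and -0.0617 to 0.0462; inserted bases 1.95 (distinct) and 0.0544 (JH1); VH joints -0.704 (JH1); log2 difference -0.0415 to 0.0430. The JH2 difference in bone marrow no longer had an unadjusted p under 0.05 for distinct junctions (-1.84) and without Ighd4-1 (-1.16). In v-Abl libraries the JH3 difference was 0.717 (distinct), -1.76 (without Ighd4-1) and 0.101 (libraries with each JH at 1% or more), and the JH4 difference -3.14 (without Ighd4-1). The VH joint difference was 2.09 in bone marrow with a match of 11 bases, and in v-Abl libraries 12.8 (distinct), -0.747 (7 bases), 13.9 (11 bases) and -10.9 (without Ighd4-1). The causes were not tested.

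With the replicate number as a block the Ighd1-1 log2 difference was -0.00354 (INV BM), -1.69 (Wapl-degron IAA/Dox), -1.25 (single-Igh IAA/Dox), 0.41 (single-Igh INV), -0.02 (untreated Wapl-degron) and -0.81 (WT BM against parental), and no call of Ighd1-1 changed. Sharing of libraries, shared bases given to JH, JH1 alone for joint and VH measures, left-out Ighd4-1 in VH joints and the difference between lines were alternatives chosen after seeing the data. With 3 or 4 libraries a group, exact tests could not reach 0.05, and VH joints of the inversion line limit their shares.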
